A study of Mus musculus with 18 samples.

Results

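The 10 growth-arrest and stress-response genes were followed through feeding and fasting in mouse hepatocytes from the central and the portal side of the liver lobule. They were Cdkn1a, Mdm2, Ccng1, Ccng2, Gadd45a, Gadd45b, Gadd45g, Btg1, Btg2 and Sesn1, listed by symbol and matched to the Ensembl gene identifiers of the count table. All 10 were found, out of 28030 genes in the table, and all 10 were among the 12477 genes tested. Cdkn1a had been chosen on its rise from the fed to the fasted state in both zones, so its fasting changes are given as a description with no test. It passed the filter on low counts through the fasted libraries: it had 12 to 46 counts in each of the 6 fed libraries and up to 2944 in a fasted one. The other 9 were listed for their functions, alongside a known result for Cdkn1a.

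Hepatocytes were isolated with digitonin as pericentral or periportal cells from C57BL/6J wild-type male mice aged 12 weeks on normal chow. All mice had been trained for 3 days to a 16 h fast and 8 h of feeding. Fed mice were killed after 4 h of feeding with 20% sucrose in the drinking water, at clock hour 13. Fasted mice lost food and sucrose at that hour and were killed after 8 h, at clock hour 21, or after 24 h, again at clock hour 13. Each of the 6 groups held 3 libraries. Fasting for 8 h and the clock hour cannot be told apart, and the same holds for 24 h against 8 h. Of the fasting comparisons, only 24 h against fed has the same clock hour on both sides. Of 16 clock genes tested, 10 were called at 8 h in pericentral and 11 in periportal hepatocytes, against 4 and 4 at 24 h. Of all genes tested, 13.8% and 14.4% were called at 8 h and 21.8% and 19.6% at 24 h. Between 24 h and 8 h, 10 clock genes were called higher and 2 lower in pericentral hepatocytes, against 5.2% and 4.51% of all genes. In periportal ones 8 were higher and 2 lower, against 3.22% and 4.24%. The labels do not say whether libraries came from separate animals, so p-values measure the spread between libraries, which may be technical.

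The product of Cdkn1a, p21, is an inhibitor of cyclin-dependent kinases and holds cells out of the division cycle. Its classic activator is the transcription factor p53, which also drives Mdm2, Ccng1, Sesn1, Gadd45a and Btg2 after DNA damage; Mdm2 in turn marks p53 for degradation. Cdkn1a and Ccng2 can also be induced through FoxO factors, which insulin keeps out of the nucleus and which are active in the fasted liver. They are named as examples: the other genes, Gadd45a included, were not sorted by whether FoxO factors act on them. The glucocorticoid receptor, too, acts on many liver genes in fasting.

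Each library held 18359911 to 26384358 estimated counts. Levels are given as CPM, counts scaled to a common library total by the TMM method, and they are compared between libraries of 1 gene, not between genes. Hepatocyte markers summed to 59600 to 192000 CPM, and the labelled zone was checked by 5 markers a side: pericentral markers summed to 9430 to 18600 CPM in the 9 pericentral libraries and to 421 to 2050 CPM in the 9 periportal ones. Periportal markers summed to 353 to 613, 2420 to 2820 and 5630 to 6640 CPM in the pericentral fed, 8 h and 24 h libraries and to 4060 to 5920, 6260 to 11000 and 9780 to 10500 CPM in the periportal ones. Their sum separated the zones within each state, but that of the pericentral 24 h libraries overlapped the periportal fed and 8 h ones. Pck1 made up most of that sum, at 4790, 4840 and 4820 CPM in the pericentral 24 h libraries. In Cyp2f2, Hal and Gls2 these libraries lay below every periportal one. In Sds, replicate 2 reached the periportal fed level (215 CPM, against 187, 211 and 210 CPM). All 5 markers were called higher at 24 h than fed in pericentral hepatocytes (median log2 fold change 2.40). Replicate 2 of the pericentral 24 h group stood apart. Its level of Glul, the glutamine synthetase of the last pericentral cells, was 111 CPM, against 928 and 707 CPM in replicates 1 and 3 and 121, 175 and 111 CPM in the periportal 24 h group. Its level of Slc1a2, a glutamate transporter of the same cells, was 8.82 CPM, against 241 and 256 CPM, while its Cyp2e1, at 10300 CPM, stayed far from the periportal range of 417 to 1830 CPM after 24 h. Results that include this library are given with and without it where it moves them.

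The sequence upstream of 4 genes is shown because these genes moved in different ways in the same libraries, while 3 of them hold a match to the same p53 motif. The windows are the 250 bases before a RefSeq start site (GRCm38.p6), written 5′ to 3′ on the strand of the gene. Capitals mark matches to the p53 response element decamer and to the FoxO site GTAAACA, on either strand and with no mismatch allowed. Cdkn1a lies at chr17:29090729-29090978 on the plus strand, Mdm2 at chr10:117710759-117711008 and Gadd45a at chr6:67037408-67037657 on the minus strand, and Btg1 at chr10:96616751-96617000 on the plus strand.
Cdkn1a: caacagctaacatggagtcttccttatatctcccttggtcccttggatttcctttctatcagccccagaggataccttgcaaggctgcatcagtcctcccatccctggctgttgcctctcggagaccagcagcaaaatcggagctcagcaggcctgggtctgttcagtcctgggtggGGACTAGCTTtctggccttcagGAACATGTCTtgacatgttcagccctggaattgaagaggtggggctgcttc
Mdm2: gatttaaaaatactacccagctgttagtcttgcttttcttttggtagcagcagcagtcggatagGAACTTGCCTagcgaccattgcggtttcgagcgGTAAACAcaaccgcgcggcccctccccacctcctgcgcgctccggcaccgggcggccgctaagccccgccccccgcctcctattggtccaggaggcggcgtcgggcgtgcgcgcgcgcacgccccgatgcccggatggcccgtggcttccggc
Gadd45a: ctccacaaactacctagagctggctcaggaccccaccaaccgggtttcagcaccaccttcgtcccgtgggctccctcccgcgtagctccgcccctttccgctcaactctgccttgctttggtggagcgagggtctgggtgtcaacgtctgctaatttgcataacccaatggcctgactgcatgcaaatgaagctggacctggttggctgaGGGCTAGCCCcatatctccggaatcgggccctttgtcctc
Btg1: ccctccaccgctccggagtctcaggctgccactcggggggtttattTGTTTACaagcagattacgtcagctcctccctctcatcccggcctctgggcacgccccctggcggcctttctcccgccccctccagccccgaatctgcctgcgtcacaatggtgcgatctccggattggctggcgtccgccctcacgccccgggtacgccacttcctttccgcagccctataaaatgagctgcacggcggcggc
In Cdkn1a the capitals are p53 decamers, 73 to 64 and 51 to 42 bases before the start at 29090979. The 10 bases directly after the second decamer miss the motif at their first base only, and so were not marked or counted. The pair counted next is thus that of the capitals, and its share does not describe a site that allows a mismatch. A pair of decamers this close, with at most 13 bases between them, was found in 24 of 32851 RefSeq windows (0.0731%) and in no other of the 12 windows of the 10 genes. A second annotated start of Cdkn1a lies 2832 bases downstream of the pair, at 29093769, and its window held no match to any motif searched. In Mdm2 the first capitals are a p53 decamer and the second a FoxO site, in Gadd45a they are a p53 decamer 40 to 31 bases before the start, and in Btg1 a FoxO site read on the opposite strand.

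The search covered windows from 250 bases before to 50 bases after each start, on both strands. Single p53 decamers lay in windows of Cdkn1a, Mdm2, Ccng1, Gadd45a and Sesn1, as in 8.36% of all windows, and these include the decamers of a pair. FoxO sites lay in windows of Mdm2, Btg1 and Sesn1 (3.65% of all windows). The cAMP response element TGACGTCA lay in that of Btg2 (1.79%), and the E-box CACGTG in those of Gadd45b and Gadd45g (7.15%). The glucocorticoid receptor hexamer AGAACA was in none of the 12 windows, against 19% of all windows, and the window of Ccng2 held none of these letters. Such matches describe the letters in a window, not bound sites.

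Cdkn1a was nearly silent in fed hepatocytes of both zones, highest at 8 h, and lower again at 24 h. In pericentral hepatocytes it stood at 0.899, 0.473 and 1.05 CPM in the fed libraries (replicates 1 to 3), at 90.1, 75 and 90.8 CPM after 8 h and at 29.9, 2.17 and 18.9 CPM after 24 h. In periportal hepatocytes it stood at 1.9, 0.879 and 0.882 CPM fed, at 61.2, 113 and 137 CPM after 8 h and at 19.7, 53 and 56.1 CPM after 24 h. Within each zone no library of any state overlapped one of another state. By mean level the order from lowest was pericentral fed (0.808 CPM ± 0.300, SD, n = 3), periportal fed (1.22 ± 0.588), pericentral 24 h (17 ± 13.9), periportal 24 h (42.9 ± 20.2), pericentral 8 h (85.3 ± 8.94) and periportal 8 h (104 ± 38.8). Neighbours in this order overlapped where they were the 2 zones of 1 state, and the periportal 24 h libraries lay below the pericentral 8 h ones.

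The log2 fold change of Cdkn1a from fed to 8 h was 6.71 (SE 0.86) in pericentral and 6.42 (SE 0.83) in periportal hepatocytes, a ratio of mean CPM of 106 and 85.1. From fed to 24 h it was 4.37 (SE 0.84) and 5.15 (SE 0.81). From 8 h to 24 h it was -2.33 (SE 0.65) in pericentral and -1.27 (SE 0.62) in periportal hepatocytes. The comparisons against fed share the fed libraries and are not independent of each other. Without replicate 2 of the pericentral 24 h group, the pericentral 24 h value against fed was 4.90 and that against 8 h was -1.80.

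No difference of Cdkn1a between the zones passed the test. Periportal against pericentral, its fitted log2 change was 0.57 (SE 1.01; edgeR adjusted p = 0.819) fed, 0.28 (SE 0.61; edgeR adjusted p = 0.85) at 8 h and 1.35 (SE 0.63; edgeR adjusted p = 0.305) at 24 h. The libraries of the zones overlapped in all 3 states. Leaving out replicate 2 of the pericentral 24 h group gave 0.82 at 24 h (edgeR adjusted p = 0.422). The difference between zones in the fasting change itself was -0.29 (SE 1.18) for 8 h and 0.77 (SE 1.21) for 24 h, intervals wide enough to hold several-fold differences in either direction.

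**Figure D1:**
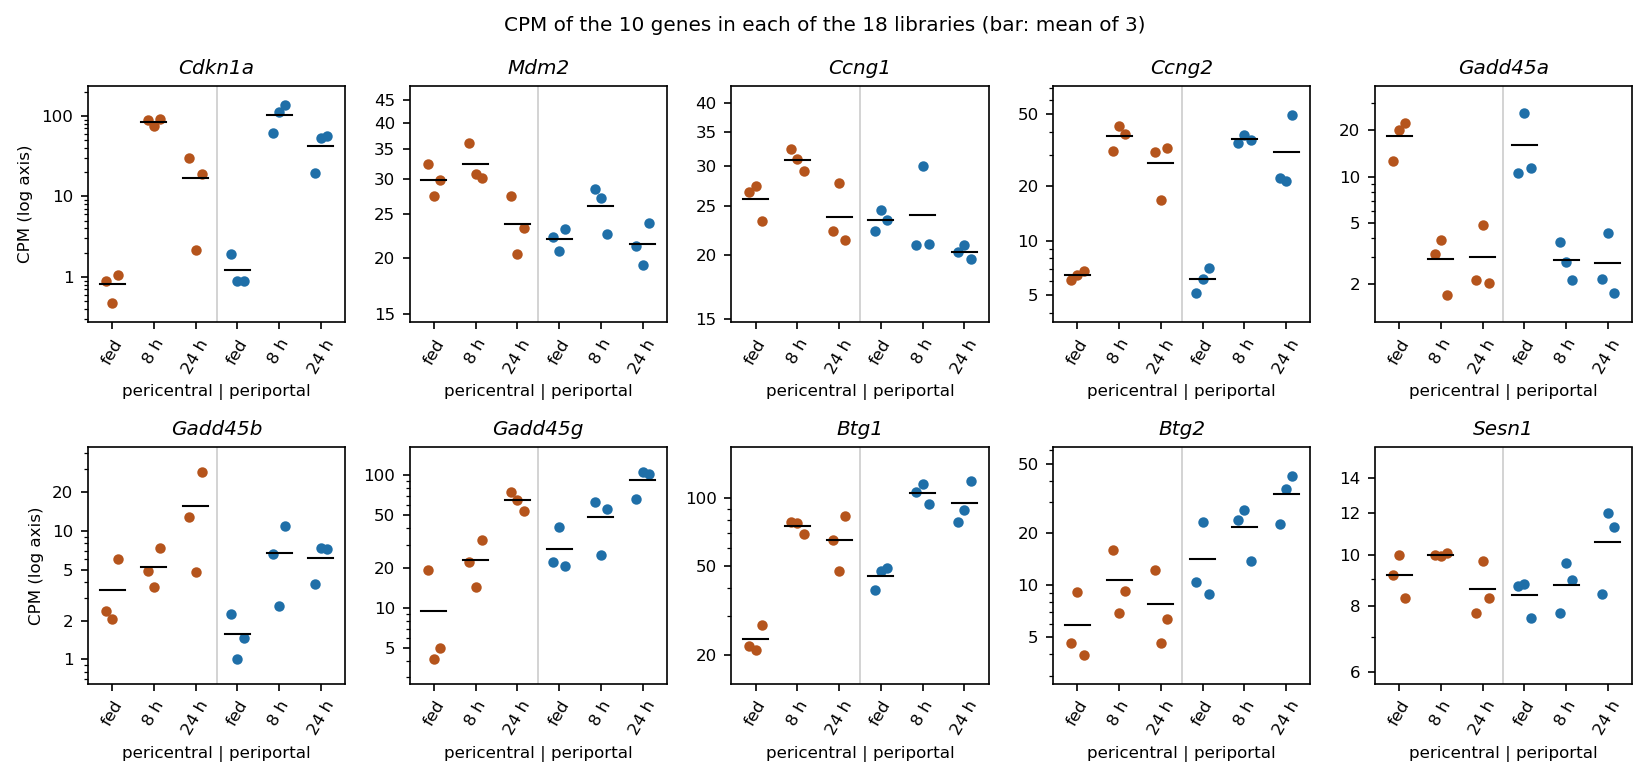
CPM of each of the 10 genes in the 18 libraries on log axes, in pericentral (orange, left of the line) and periportal (blue, right) hepatocytes, fed, at 8 h and at 24 h of fasting; points are libraries and bars are means of 3. Cdkn1a spans 0.473 to 137 CPM, Ccng2 and Btg1 rise in both zones, Gadd45a falls, and Mdm2, Ccng1 and Sesn1 stay within narrow ranges.

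Of the 9 other genes, Ccng2 and Btg1 rose and Gadd45a fell at 8 h in both zones (edgeR, adjusted p under 0.05), and the remaining 6 were not called. That is 2 higher and 1 lower in each zone. Over all genes tested, 7.27% were called higher and 6.57% lower in pericentral, and 7.56% higher and 6.85% lower in periportal hepatocytes. At 24 h in pericentral hepatocytes, 4 of the 9 were higher (Ccng2, Btg1, Gadd45g and Gadd45b) and 1 lower (Gadd45a), against 10.8% and 11.1% of all genes. In periportal hepatocytes 3 were higher (Ccng2, Btg1 and Gadd45g) and 1 lower (Gadd45a), against 9.59% and 10%. The median log2 fold change of the 9 genes was 0.60 and 0.61 at 8 h and 0.39 and 1.08 at 24 h, in pericentral and periportal hepatocytes, beside 0.01 over all genes tested in each comparison at 8 h.

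Among the genes that p53 is best known to drive, Mdm2, which encodes the ubiquitin ligase that degrades p53, showed no called change against fed in either zone. In pericentral hepatocytes Mdm2 was at 32.3, 27.5 and 29.8 CPM fed, 36, 30.8 and 30.1 CPM after 8 h, and 27.5, 20.4 and 23.3 CPM after 24 h. In periportal hepatocytes it was at 22.2, 20.7 and 23.2 CPM fed, 28.5, 27.2 and 22.6 CPM after 8 h, and 21.2, 19.3 and 23.9 CPM after 24 h. Fed and fasted libraries overlapped in every one of these comparisons. The fitted log2 changes at 8 h were 0.11 (SE 0.12; edgeR adjusted p = 0.62) and 0.25 (SE 0.13; edgeR adjusted p = 0.217), beside values above 6 for Cdkn1a in the same libraries. At 24 h they were -0.33 (SE 0.12; edgeR adjusted p = 0.0671) and -0.04 (SE 0.13; edgeR adjusted p = 0.881), and the pericentral one was called without 24 h replicate 1 (-0.47, edgeR adjusted p = 0.0231).

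Ccng1 encodes cyclin G1, a partner of protein phosphatase 2A that acts on Mdm2. It was at 26.7, 27.4 and 23.4 CPM fed, 32.4, 31 and 29.3 CPM after 8 h, and 22.3, 27.8 and 21.5 CPM after 24 h in pericentral hepatocytes. In periportal hepatocytes the values were 22.4, 24.6 and 23.5 CPM, then 21, 30 and 21.1 CPM, then 20.3, 21 and 19.7 CPM. The pericentral 8 h libraries all lay above the fed ones and the periportal 24 h libraries all below them, but the differences were small. The fitted log2 changes were 0.26 (SE 0.13; edgeR adjusted p = 0.218) at 8 h in pericentral and -0.21 (SE 0.13; edgeR adjusted p = 0.299) at 24 h in periportal hepatocytes, and neither passed the threshold.

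Sesn1, a sestrin that restrains the growth kinase mTORC1, had the narrowest range of group means among the 10 genes. Its pericentral levels were 9.16, 10 and 8.29 CPM fed, 10, 9.95 and 10.1 CPM after 8 h, and 7.78, 9.74 and 8.3 CPM after 24 h. Its periportal levels were 8.75, 8.83 and 7.6 CPM, 7.75, 9.65 and 8.95 CPM, and 8.44, 12 and 11.3 CPM. States overlapped in both zones against fed, and the log2 fold changes lay between -0.09 and 0.34, none called; the highest, in periportal hepatocytes at 24 h, was called without replicate 1 of that group (0.47, edgeR adjusted p = 0.0269). Its relative Sesn2, a sestrin also induced by amino acid and endoplasmic reticulum stress, rose in all 4 comparisons against fed, by log2 1.49 and 1.33 at 8 h and 1.91 and 2.03 at 24 h in the pericentral and the periportal cells (adjusted p by edgeR 0.000131, 0.000395, 1.15e-05 and 7.94e-06).

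Gadd45a, a stress sensor of the growth arrest and DNA damage family that binds p21 and PCNA, moved opposite to Cdkn1a. Its pericentral levels were 12.6, 20 and 22.3 CPM fed, 3.15, 3.86 and 1.7 CPM after 8 h, and 2.15, 4.85 and 2.03 CPM after 24 h. Its periportal levels were 10.5, 26 and 11.4 CPM fed, 3.76, 2.8 and 2.14 CPM after 8 h, and 2.18, 4.28 and 1.75 CPM after 24 h. Every fasted library lay below every fed library. The fitted log2 change was -2.66 (SE 0.46; edgeR adjusted p = 0.00139) and -2.45 (SE 0.46; edgeR adjusted p = 0.00267) at 8 h, and -2.59 (SE 0.46; edgeR adjusted p = 0.00113) and -2.53 (SE 0.47; edgeR adjusted p = 0.00166) at 24 h, in pericentral and periportal hepatocytes. From 8 h to 24 h it was 0.08 (SE 0.48) and -0.07 (SE 0.49), with overlapping libraries, while those of Cdkn1a did not overlap.

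Ccng2 encodes cyclin G2, an unconventional cyclin that slows the cell cycle and a known FoxO target. In pericentral hepatocytes it was at 6.08, 6.46 and 6.81 CPM fed, 31.5, 43.2 and 38.9 CPM after 8 h, and 31.1, 16.8 and 32.5 CPM after 24 h. In periportal hepatocytes it was at 5.16, 6.11 and 7.05 CPM fed, 34.7, 38.5 and 36.3 CPM after 8 h, and 22.3, 21.3 and 49.4 CPM after 24 h. All fasted libraries lay above all fed ones. The fitted log2 change was 2.55 (SE 0.31; edgeR adjusted p = 7.21e-05) and 2.58 (SE 0.31; edgeR adjusted p = 7.55e-05) at 8 h, and 2.05 (SE 0.30; edgeR adjusted p = 0.000252) and 2.34 (SE 0.31; edgeR adjusted p = 0.00012) at 24 h. The 8 h and 24 h libraries overlapped in both zones, and the change between them was not called.

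Btg1, an antiproliferative gene whose protein binds the CCR4-NOT deadenylase, rose in every fasting comparison against fed. Its pericentral levels were 22.1, 21.2 and 27.4 CPM fed, 78.8, 77.7 and 69.6 CPM after 8 h, and 65.2, 47.4 and 83.6 CPM after 24 h. Its periportal levels were 39, 47.7 and 49.2 CPM fed, 107, 116 and 94.5 CPM after 8 h, and 78.8, 88.7 and 119 CPM after 24 h. Fasted libraries lay above fed libraries of the same zone without overlap. The fitted log2 change was 1.68 (SE 0.19; edgeR adjusted p = 2.94e-05) and 1.23 (SE 0.19; edgeR adjusted p = 0.000411) at 8 h, and 1.47 (SE 0.19; edgeR adjusted p = 6.11e-05) and 1.08 (SE 0.19; edgeR adjusted p = 0.000816) at 24 h.

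Btg2, its p53-responsive and immediate early relative, was not called against fed. Pericentral libraries held 4.63, 9.1 and 3.97 CPM fed, 15.9, 6.93 and 9.28 CPM after 8 h, and 12.2, 4.63 and 6.38 CPM after 24 h. Periportal libraries held 10.4, 23.1 and 8.89 CPM fed, 23.7, 27.2 and 13.7 CPM after 8 h, and 22.6, 35.6 and 42.4 CPM after 24 h. The states overlapped against fed in both zones. The highest of the 4 log2 fold changes against fed was 1.25 (SE 0.47; edgeR adjusted p = 0.0801), in periportal hepatocytes at 24 h, and it was called without fed replicate 2 of that zone (1.80, edgeR adjusted p = 0.0294).

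Gadd45g, a family member that cytokines induce, rose by 24 h. Its pericentral levels were 19.3, 4.13 and 4.98 CPM fed, 22.3, 14.5 and 32.4 CPM after 8 h, and 75.2, 65.1 and 54.2 CPM after 24 h. Its periportal levels were 22.4, 40.7 and 20.7 CPM fed, 63.3, 25.2 and 56 CPM after 8 h, and 66.6, 106 and 102 CPM after 24 h. The 24 h libraries lay above both the fed and the 8 h libraries in each zone, whereas fed and 8 h libraries overlapped. At 24 h the fitted log2 change was 2.77 (SE 0.55; edgeR adjusted p = 0.0031) in pericentral and 1.71 (SE 0.53; edgeR adjusted p = 0.0364) in periportal hepatocytes, and at 8 h it was 1.28 (edgeR adjusted p = 0.145) and 0.78 (edgeR adjusted p = 0.367). The periportal call was lost without fed replicate 1 or 3 or 24 h replicate 2 or 3 of that zone (1.57, 1.53, 1.59 and 1.63). It was lost also without a filter on low counts (1.71, edgeR adjusted p = 0.0764). With only the groups compared in the fit, the pericentral call at 24 h was lost (2.76, edgeR adjusted p = 0.052). The pericentral 8 h value was 2.35 and called (edgeR adjusted p = 0.00779) without fed replicate 1, the pericentral fed library in which Gadd45g was high.

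Gadd45b, the member induced by NF-kappaB and TGF-beta signalling, was variable. Its pericentral levels were 2.39, 2.05 and 6.03 CPM fed, 4.83, 3.63 and 7.31 CPM after 8 h, and 12.9, 4.82 and 28.9 CPM after 24 h. Its periportal levels were 2.27, 0.999 and 1.47 CPM fed, 6.62, 2.58 and 10.9 CPM after 8 h, and 3.86, 7.36 and 7.17 CPM after 24 h. Pericentral fed and 24 h libraries overlapped, while periportal fasted libraries all lay above the fed ones. The call at 24 h in pericentral hepatocytes (log2 fold change 2.15, SE 0.65; edgeR adjusted p = 0.0297) was lost without fed replicate 1 (1.92), fed replicate 2 (1.87) or 24 h replicate 3 (1.34), and also with limma-voom (1.90, adjusted p = 0.0717), without a filter on low counts (2.14, edgeR adjusted p = 0.0652) and with only the groups compared in the fit (2.14, edgeR adjusted p = 0.144). In periportal hepatocytes the values were 2.08 (SE 0.69; edgeR adjusted p = 0.0606) at 8 h and 1.96 (SE 0.70; edgeR adjusted p = 0.0637) at 24 h. Replicates 2 and 3 of the pericentral 24 h group lie outside these comparisons. They enter only through the shared filter, scaling, estimate of the spread and adjustment of p. Without replicate 2 or 3 of that group both values were called, at about the same size (edgeR adjusted p = 0.0303 and 0.0329 at 8 h, 0.0334 and 0.0354 at 24 h). By DESeq2 both were called (2.09 and 1.97, adjusted p = 0.0137 and 0.0195), and with only the groups compared in the fit that at 24 h was (1.97, edgeR adjusted p = 0.00592). They were called also without replicate 2 of the periportal 8 h group (2.47 at 8 h, edgeR adjusted p = 0.0365; 1.96 at 24 h, edgeR adjusted p = 0.0491).

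**Figure D2:**
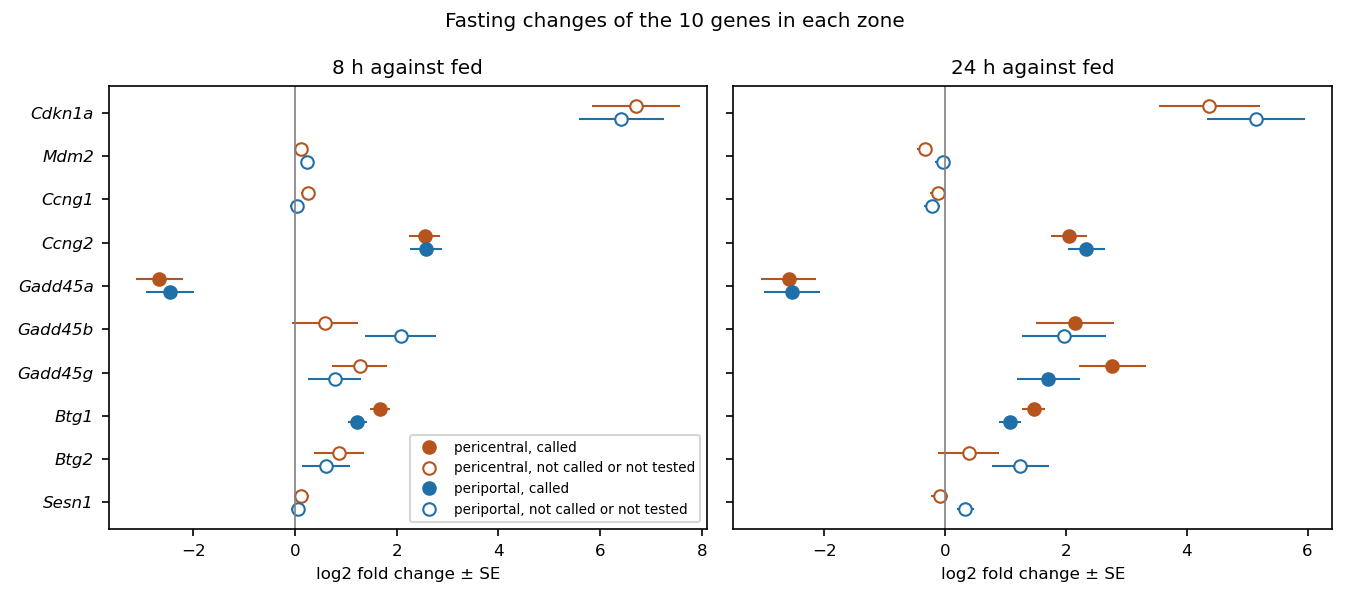
Log2 fold change against fed (horizontal axis, bars are SE) of the 10 genes at 8 h and 24 h, pericentral in orange and periportal in blue; filled points were called by edgeR and Cdkn1a, open, was not tested. Cdkn1a lies at 6.71 and 6.42 at 8 h, Gadd45a is on the opposite side of 0, and Mdm2, Ccng1 and Sesn1 lie near 0.

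Between 8 h and 24 h, which also differ in clock hour, 1 of the 9 genes was called in pericentral and 0 in periportal hepatocytes. In pericentral hepatocytes 0 of the 9 were called higher, against 5.2% of all genes, and Mdm2 alone was called lower, against 4.51%: its fitted log2 change was -0.45 (SE 0.12; edgeR adjusted p = 0.0328). That call was lost without 24 h replicate 2 (-0.35), 24 h replicate 3 (-0.43), 8 h replicate 1 (-0.37) or 8 h replicate 2 (-0.50). The Mdm2 call was lost also with only the groups compared in the fit (-0.44, edgeR adjusted p = 0.0975). Without 24 h replicate 2, Ccng1 was called lower in its place (-0.50, edgeR adjusted p = 0.0435), and it was called beside Mdm2 without periportal 8 h replicate 2 (-0.37, edgeR adjusted p = 0.0337). Gadd45g was called higher without pericentral fed replicate 1 (1.47, edgeR adjusted p = 0.0293) and with only the groups compared in the fit (1.5, edgeR adjusted p = 0.0383). In periportal hepatocytes 0 of 9 were called by edgeR in either direction, against 3.22% of all genes higher and 4.24% lower. There, 1 of the 9 had an unadjusted p under 0.05, and DESeq2 and limma-voom called 0. In pericentral hepatocytes 4 of the 9 had an unadjusted p under 0.05 (Mdm2, Ccng1, Gadd45b and Gadd45g). Gadd45g, whose 24 h libraries lay above its 8 h ones in both zones, had fitted log2 values of 1.49 and 0.93 in pericentral and periportal hepatocytes and was not called.

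Replicate 2 of the pericentral 24 h group was below both other libraries of its group in Cdkn1a, Mdm2, Ccng2, Gadd45b, Btg1 and Btg2, above both in Ccng1, Gadd45a and Sesn1, and between them in Gadd45g. It was also low in FoxO targets, whose CPM summed to 339 against 784 and 791, and in glucocorticoid targets, at 3100 against 7650 and 6220. Immediate early and heat shock genes summed to 171 CPM in it, against 459 and 359 CPM. Clock genes stood apart in both directions, such as Dbp at 63.5 CPM against 18.6 and 25.7 CPM, and Clock at 4.38 CPM against 20.9 and 20.6 CPM. Periportal markers summed to 6640 CPM in this library, against 5660 and 5630 CPM, with Cyp2f2 at 793 CPM against 345 and 322 CPM. The part of these differences in the levels of the 10 genes was not tested. Without this library Ccng2, Btg1, Gadd45g, Gadd45b and Gadd45a were called at 24 h in pericentral hepatocytes as with it, at log2 fold changes of 2.30, 1.66, 2.76, 2.58 and -3.13. Replicate 1 of the periportal 8 h group also differed from the others of its group. Its glucocorticoid targets summed to 3280 CPM, against 6910 and 5450 CPM, and its immediate early and heat shock genes to 674 CPM, against 458 and 260 CPM. Its Cdkn1a was the lowest there, at 61.2 CPM, against 113 and 137 CPM.

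The question whether p53 targets moved with Cdkn1a was addressed with 26 further targets outside the 10 genes, drawn up with earlier results of these data known. Of these, 25 were in the table and 24 were tested. At 8 h in pericentral hepatocytes 5 were called higher and 1 lower, against 7.27% and 6.57% of all genes, and the median fitted log2 change was 0.24, beside 0.01 over all genes tested. Among the 5, Eda2r, a death receptor of the TNF family, stood at 1.31, 0.744 and 0.889 CPM in the pericentral 8 h libraries and at no more than 0.368 CPM in any other, so that it passed the filter on low counts through the group where it was high and had to differ there (3.07). Without it 4 were called higher. The others with the largest changes were Trp53inp1, a p53 cofactor active in autophagy (1.51), Ppm1d, the phosphatase that switches p53 signalling off (1.0), and Plk2, a stress-induced polo-like kinase (0.90). The call lower was Tigar, which diverts glucose from glycolysis (-0.57). The total of 6 calls was 2, 2 and 3 when fed replicate 1, 2 or 3 of the pericentral group was left out. In periportal hepatocytes at 8 h, 3 were called higher (Ppm1d 0.60, Ei24 0.56 and the death receptor gene Fas 0.47) and 1 lower (Tigar -0.65), against 7.56% and 6.85% of all genes, with a median of 0.14; without periportal fed replicate 2 the total was 2.

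At 24 h, 3 of the 24 p53 targets were called higher and 3 lower in pericentral hepatocytes, near the 10.8% and 11.1% of all genes, with a median of -0.08. Trp53inp1 (2.12) and Ppm1d (0.74) were among those higher, and Tigar (-0.97) and the RNA-binding Zmat3 (-0.64) among those lower. Without 24 h replicate 2 the counts were 3 higher and 1 lower. In periportal hepatocytes 4 were higher, Trp53inp1 (2.24), the DNA repair gene Ddb2 (0.86), Ppm1d (0.80) and Ei24 (0.51), and Tigar was lower (-0.61), against 9.59% and 10% of all genes, with a median of 0.10; without periportal fed replicate 1 the total of 5 was 3. Called in both zones were Ppm1d, Ei24 and Tigar at 8 h and Ppm1d, Trp53inp1 and Tigar at 24 h. From 8 h to 24 h, where Cdkn1a fell, edgeR called 0 of the 24 higher and 4 lower in pericentral hepatocytes. Of all genes, 5.2% were called higher and 4.51% lower there. In periportal hepatocytes 0 were higher and 2 lower, against 3.22% and 4.24% of all genes. The medians were -0.31 and -0.02, beside -0.01 and -0.02 over all genes tested, and 10 and 5 had an unadjusted p under 0.05. The pericentral values include Eda2r, which passed the filter on low counts through the pericentral 8 h group. It had to differ in this comparison too and is no support for a shared fall.

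Trp53, the gene of p53 itself, named here for its role, changed by 0.25 and 0.28 at 8 h and by -0.22 and -0.12 at 24 h, and was not called in any comparison against fed (edgeR adjusted p = 0.344, 0.277, 0.382 and 0.658). Of 14 genes of p53 and its regulators, edgeR called 0 at 8 h in pericentral hepatocytes, where 2 had an unadjusted p under 0.05, and 1 in each of the other 3 comparisons. Of all genes, 13.8% and 14.4% were called at 8 h and 21.8% and 19.6% at 24 h in pericentral and periportal hepatocytes. The gene called was Sirt1, a deacetylase of p53 and of FoxO factors, which was higher (0.61 in periportal hepatocytes at 8 h, 0.75 and 0.56 at 24 h). These mRNA levels do not measure the amount or the activity of the p53 protein.

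Of 5 other inhibitors of cyclin-dependent kinases, 2 were called higher in pericentral hepatocytes at 8 h and 2 at 24 h, and 1 in periportal ones at 8 h, against 7.27%, 10.8% and 7.56% of all genes in these comparisons. Cdkn1b, which encodes p27 and is also a FoxO target, rose by log2 0.59 and 0.55 at 8 h in pericentral and periportal hepatocytes and by 0.61 at 24 h in pericentral ones. Cdkn2c, which encodes p18, rose in pericentral hepatocytes (0.97 at 8 h and 0.90 at 24 h). In periportal hepatocytes at 24 h edgeR called 0 of the 5 inhibitors, against 9.59% of all genes higher and 10% lower. Of the 5, 1 had an unadjusted p under 0.05. Of 6 relatives of the 10 genes, 5 were tested: 1 was called higher in pericentral hepatocytes at 8 h, 2 higher and 1 lower in periportal ones, and 2 higher in each zone at 24 h. Of all genes, 7.27% were called higher in pericentral and 7.56% higher and 6.85% lower in periportal hepatocytes at 8 h. At 24 h 10.8% and 9.59% were called higher.

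Of 29 genes of the division cycle itself, 2 were called at 8 h in pericentral and 1 in periportal hepatocytes, all higher, against 7.27% and 7.56% of all genes called higher there. At 24 h 2 were higher and 3 lower in pericentral hepatocytes (Cdk1 1.06, Ccne1 1.12, and the replication licensing genes Mcm2 -0.85, Mcm3 -0.80 and Mcm4 -0.67), and 1 was higher in periportal ones (Cdk1 1.15). The pericentral counts at 24 h lie near or below the 10.8% of all genes called higher and 11.1% lower, and the periportal count below 9.59%. The medians lay between -0.05 and 0.03 over the 4 comparisons.

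A list of FoxO targets had calls higher in every comparison against fed. Of 9 tested, 4 were called higher at 8 h in each zone, 4 at 24 h in pericentral and 6 at 24 h in periportal hepatocytes, and none lower by edgeR, where 7.27% and 7.56% of all genes were called higher at 8 h and 10.8% and 9.59% at 24 h in pericentral and periportal hepatocytes. The medians were 1.15, 1.65, 1.87 and 1.95. The insulin receptor substrate gene Irs2 (3.76 and 2.75 at 8 h, 3.64 and 3.04 at 24 h), the binding protein gene Igfbp1 (3.57 and 2.94, then 4.23 and 5.01) and the ubiquitin ligase gene Fbxo32 (2.32 and 1.65, then 2.32 and 1.73) were called in all 4 comparisons. Of 8 glucocorticoid targets, 3 and 2 were called higher at 8 h and 4 and 5 at 24 h in the same zones, beside the same shares of all genes, with medians of 0.69, 0.91, 1.23 and 1.27. From 8 h to 24 h, 0 FoxO targets were called higher and 1 lower in pericentral hepatocytes, with a median of 0.04. In periportal hepatocytes 1 was higher and 0 lower by edgeR, with a median of 0.75. Of all genes, 5.2% were called higher and 4.51% lower in pericentral, and 3.22% and 4.24% in periportal hepatocytes. The p53 targets and the FoxO targets were not tested against each other. Of 16 immediate early and heat shock genes tested, 1 was higher and 2 lower at 8 h in pericentral hepatocytes. Of all genes, 7.27% were called higher and 6.57% lower there. At 8 h in periportal hepatocytes 1 was higher, against 7.56% of all genes, and at 24 h in pericentral ones 2 were, against 10.8%. In periportal hepatocytes at 24 h edgeR called 0 of the 16, against 9.59% of all genes higher and 10% lower, with 3 at an unadjusted p under 0.05.

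**Figure D3:**
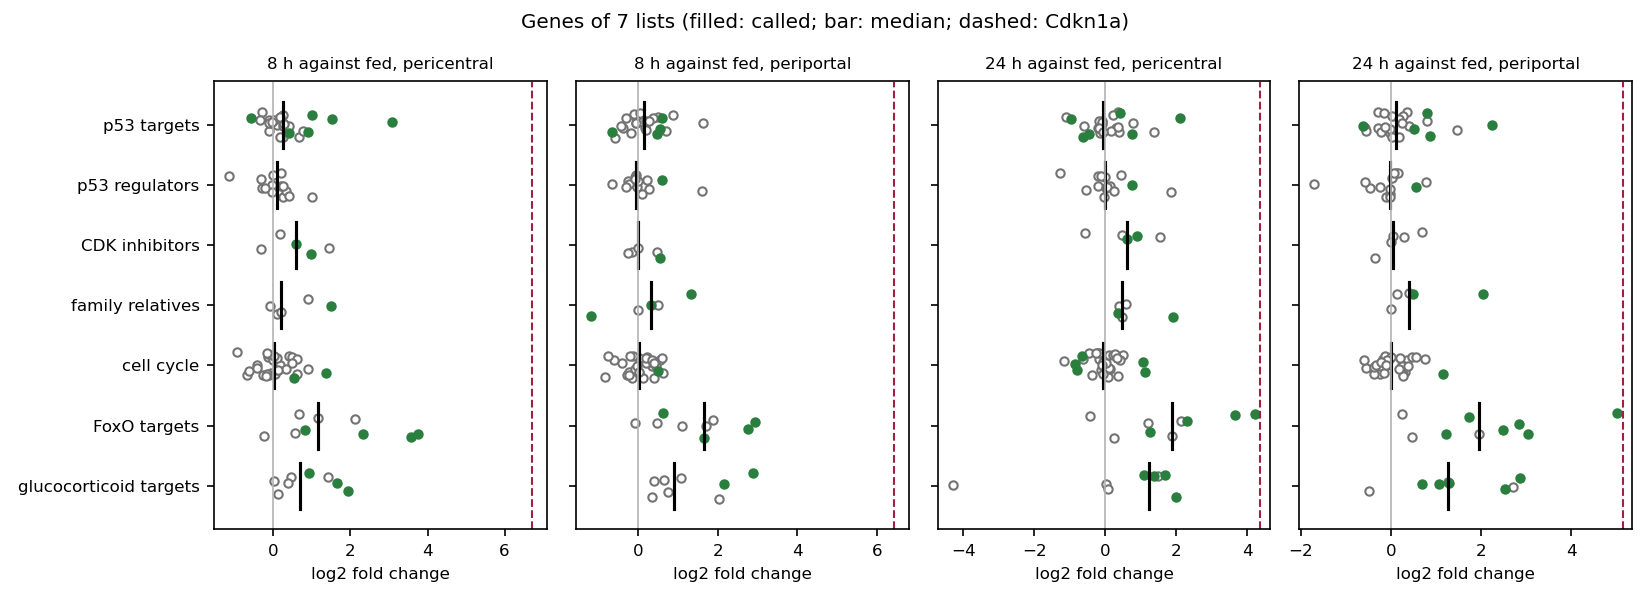
Log2 fold change against fed of each tested gene in 7 lists, 1 panel per comparison; filled points were called by edgeR, bars are list medians, and the dashed line is Cdkn1a. The p53 targets centre near 0, at medians of 0.24, 0.14, -0.08 and 0.10 from left to right, and the FoxO targets at 1.15, 1.65, 1.87 and 1.95.

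The likeness of each gene to Cdkn1a was measured as the root mean square difference of log2 CPM over the 6 group means, each gene centred on its own mean. This measure also counts the size of the changes. The 6 genes nearest to Cdkn1a were Irs2 (1.40), the ferritin receptor gene Scara5 (1.41), the lipase inhibitor gene Angptl4 (1.42), the metallothionein gene Mt2 (1.42), Glce (1.47) and Nlrp12 (1.51). Whether reads of Mt2 are shared with related metallothionein genes was not tested, and Glce was low, at 0 to 10.8 CPM. Scara5 was, as Cdkn1a, lower at 24 h than at 8 h by mean (49.4 against 5.92 CPM in pericentral and 33 against 12.8 CPM in periportal hepatocytes), whereas Irs2 was not (41.5 against 38.5 CPM and 43 against 52.7 CPM). The periportal libraries of Scara5 overlapped, at 5.49, 42.7 and 50.9 CPM after 8 h and 13.6, 5.82 and 19 CPM after 24 h. Among the 12476 other tested genes, Ccng2 ranked 15 (1.69), Btg1 99 (2.11), Gadd45g 201 (2.29), Gadd45b 259 (2.32) and Btg2 346 (2.37) in likeness. Sesn1 ranked 3915 (2.70), Mdm2 5194 (2.73), Ccng1 5524 (2.74) and Gadd45a 12435 (3.89). A low rank number is thus not a close likeness: Gadd45b and Btg2 lay nearer in distance to Sesn1, Mdm2 and Ccng1 than to Irs2. Without replicate 2 of the pericentral 24 h group, a setting chosen after seeing the data, the nearest 6 were Mt2 (1.25), Irs2 (1.33), Angptl4 (1.33), Nlrp12 (1.38), Mt1 (1.39) and Scara5 (1.43). Ccng2 then ranked 14, Btg1 109 and Gadd45a 12439.

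Between the zones, 5 of the 10 genes differed on the mean of the 3 states, against 20.3% of all genes tested. Btg1 (log2 fold change of periportal against pericentral 0.66, SE 0.11; edgeR adjusted p = 0.000271), Btg2 (1.46, SE 0.28; edgeR adjusted p = 0.00191) and Gadd45g (1.04, SE 0.30; edgeR adjusted p = 0.0267) were higher in periportal hepatocytes. Mdm2 (-0.30, SE 0.07; edgeR adjusted p = 0.00698) and Ccng1 (-0.24, SE 0.08; edgeR adjusted p = 0.0292) were lower there. The calls of Mdm2, Btg1 and Btg2 held in each fit that left out 1 library. That of Ccng1 was lost in 6 of the 18 such fits (-0.20 without pericentral 24 h replicate 2, -0.22 without periportal 8 h replicate 3, and -0.23 to -0.24 without pericentral fed replicate 2, pericentral 8 h replicate 1, periportal fed replicate 1 or periportal 24 h replicate 3). That of Gadd45g was lost in 5 (0.90 without periportal fed replicate 2, 0.95 without replicate 2 of the pericentral or replicate 1 of the periportal 8 h group, and 1.0 without replicate 3 of the pericentral 24 h or of the periportal 8 h group). The Gadd45g call was lost also without a filter on low counts (1.03, edgeR adjusted p = 0.0569).

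State by state, 2 of the 10 were called in fed hepatocytes, against 8.01% of all genes: Btg1 was higher in periportal cells (0.94, SE 0.19; edgeR adjusted p = 0.00446) and Mdm2 lower (-0.44, SE 0.12; edgeR adjusted p = 0.038), both without overlap between libraries. The Mdm2 call was lost when any 1 of the 6 fed libraries was left out, at -0.39 to -0.50. Gadd45g fed was 1.55 (edgeR adjusted p = 0.107) and, without pericentral fed replicate 1, 2.61 (edgeR adjusted p = 0.00584). At 8 h edgeR, DESeq2 and limma-voom each called 0 of the 10, against 7.14% of all genes by edgeR, with 3 at an unadjusted p under 0.05. Without periportal 8 h replicate 2, Ccng1 was called lower in periportal cells at 8 h (-0.55, edgeR adjusted p = 0.011). At 24 h Btg2 was called, against 4.17% of all genes, at 2.12 (SE 0.49; edgeR adjusted p = 0.0253), and the call was lost without 24 h replicate 2 or 3 of either zone (1.85 and 2.0 for the pericentral, 2.07 and 1.91 for the periportal libraries). At 24 h Btg1 was 0.55 (edgeR adjusted p = 0.116) and was called without pericentral replicate 3 (0.76, edgeR adjusted p = 0.0356).

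Other signals were also compared between the zones. Of the 16 immediate early and heat shock genes tested, 4 were higher in periportal hepatocytes on the mean of 3 states and none lower by edgeR. They were Nr4a1 (2.65), Zfp36 (0.96), Ier2 (0.94) and Junb (0.84). That is near the 20.3% of all genes called in either direction. Markers of other liver cells were low everywhere, at summed levels of 2.83 to 31.7 CPM for sinusoidal endothelial cells, 0.372 to 18 CPM for Kupffer cells and leukocytes, 0.696 to 14.7 CPM for stellate cells and fibroblasts and 19.3 to 56.7 CPM for cholangiocytes. On the mean of 3 states, 4 of 5 endothelial, 3 of 6 Kupffer and leukocyte and 2 of 3 cholangiocyte markers tested were called higher in periportal hepatocytes. By edgeR 0 of 3 stellate and fibroblast markers were called, all 3 with an unadjusted p under 0.05. The endothelial marker that was not called lay at -0.28, and 20.3% of all genes were called in either direction. In the fed state, periportal against pericentral libraries, the summed levels were 9.67 to 11.8 against 2.83 to 5.12 CPM for endothelial, 3.88 to 7.02 against 1.14 to 1.83 CPM for Kupffer and leukocyte, 4.13 to 6.25 against 1.07 to 2.26 CPM for stellate and fibroblast and 34.6 to 56.7 against 25 to 31 CPM for cholangiocyte markers. At 8 h and 24 h the endothelial, Kupffer and leukocyte, and stellate and fibroblast sums of the zones overlapped, and the cholangiocyte sums did not. The cholangiocyte marker Epcam was at 0 in all 18 libraries and Cftr in 12. The part of these signals in the zone differences of Btg1, Btg2 and Gadd45g was not tested. In such bulk libraries fewer cells of a type and less RNA per cell cannot be told apart.

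**Figure D4:**
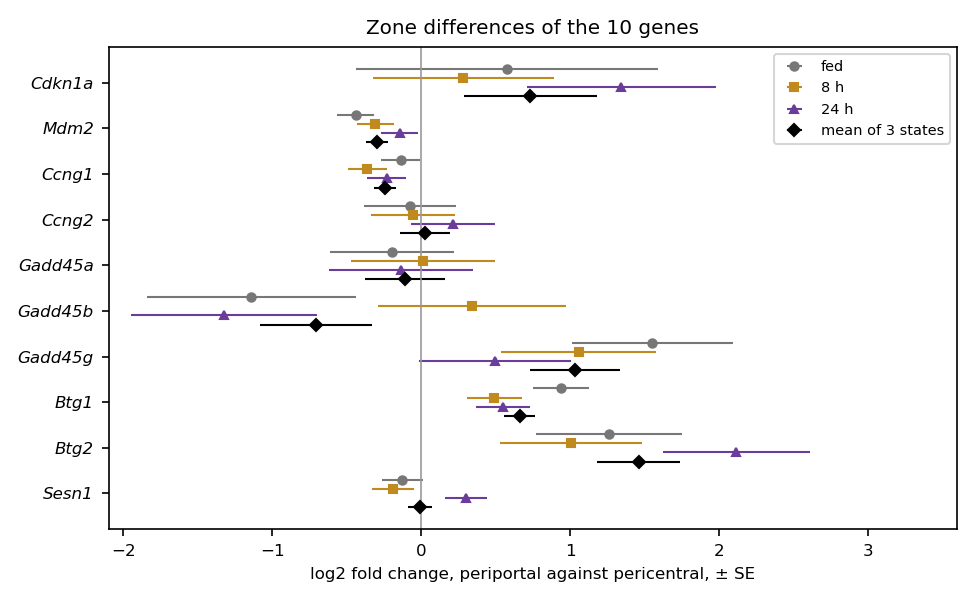
Log2 fold change of periportal against pericentral hepatocytes (bars are SE) for the 10 genes, fed (grey circles), at 8 h (yellow squares), at 24 h (purple triangles) and on the mean of the 3 states (black diamonds). Btg1, Btg2 and Gadd45g lie to the right of 0 in all 3 states, and Mdm2 and Ccng1 to the left.

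Whether fasting changed the genes differently in the zones was tested directly. For the change from fed to 8 h, edgeR, DESeq2 and limma-voom each called 0 of the 10, with 0 at an unadjusted p under 0.05 by edgeR, and edgeR called 0% of all genes. For the change from fed to 24 h each again called 0 of the 10, with 1 at an unadjusted p under 0.05, and edgeR called 0.016% of all genes. That gene was Sesn1 (0.42, SE 0.20; edgeR adjusted p = 0.639), whose fasting change was 0.34 in periportal and -0.09 in pericentral hepatocytes. For Ccng2, Btg1 and Gadd45a the zone differences to 24 h were 0.29 (SE 0.42), -0.39 (SE 0.26) and 0.06 (SE 0.64).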

How the data were processed

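RNA was sequenced from 18 libraries of isolated mouse hepatocytes, in 6 groups of 3. The deposited values are estimated counts in 1 table for all libraries, which the authors made with kallisto 0.46.0 and the build mm10, per the submitters' processing notes. How transcripts were summed to genes, the annotation and the use of strand are not given in the sources used here, so antisense and overlapping genes could not be separated. Of the values, 67.5% to 70.5% a library were whole within 1e-09. All were rounded before testing. The 10 genes, the gene lists and the tests were chosen with earlier results of these data known.

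Genes passing filterByExpr (12477) were fitted in 1 model with a coefficient per group in R 4.3.3 with edgeR 4.0.16 (quasi-likelihood F test, TMM, robust), and 12 comparisons were taken from it. P-values were adjusted by Benjamini-Hochberg over all genes tested, and called at an adjusted p under 0.05. SE is the size of the log2 fold change divided by the square root of F. DESeq2 1.42.0, limma-voom (limma 3.58.1), another scaling, other filters, other sample sets, a replicate block and leaving out each library were alternatives. Likeness used log2 CPM with a prior count of 2. Named were the 10 genes, at most 4 called genes of a list with the largest change in a comparison, and the 6 genes most like Cdkn1a. Promoter windows and start sites are from RefSeq (GRCm38.p6). Replicates were compared for duplicates: the chi-square per gene was 35.9 to 121.6 over 18 pairs.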

Additional observations from a re-analysis of the deposited data

How the results depend on the processing

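The 8 alternatives kept all libraries of the groups compared, and 18 further fits left out 1 library each. Of the 8, 1 dropped the groups outside the comparison. No log2 fold change of the 10 genes that was called reversed its sign. The calls of Ccng2, Btg1 and Gadd45a against fed held in all 26. With only the groups of a comparison in the fit, 3 of the 9 genes were called at 24 h in pericentral hepatocytes in place of 5, 2 p53 targets at 8 h in periportal ones in place of 4, and 0 genes between zones at 24 h in place of 1. That zone count was 0 also without a filter on low counts. The replicate numbers were not taken to pair the libraries, since the labels do not say whether libraries of 1 number share an animal. Same-numbered pairs correlated at -0.12 to 0.206 in their deviations from the group means. Of these, 7 of 45 pairs were over 0.1, against 3 of 90 pairs of different numbers. They include pairs of different feeding states, so they cannot decide whether the zones of 1 state share animals, and a pairing is not excluded. Of the 18 libraries, 10 correlated best with their own number. With the replicate number as a block, 2 genes were called between 24 h and 8 h in pericentral hepatocytes in place of 1, and 1 between zones at 8 h in place of 0. These were Ccng1 in both comparisons (-0.38 and -0.38), beside Mdm2 in the first. The block also called Mdm2 lower at 24 h than fed in pericentral hepatocytes (-0.34, edgeR adjusted p = 0.0377) and Gadd45b higher in periportal ones at 8 h and 24 h (1.94 and 2.06, edgeR adjusted p = 0.0176 and 0.0105). The causes were not tested.

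Leaving out 1 library at a time gave 3 to 4 calls at 8 h in each zone (3 with all libraries), 4 to 6 and 3 to 5 at 24 h in pericentral and periportal hepatocytes (5 and 4), and 0 to 2 between 24 h and 8 h in pericentral hepatocytes (1). Between the zones it gave 1 to 2 fed (2), 0 to 1 at 8 h (0), 0 to 1 at 24 h (1) and 3 to 5 on the mean of 3 states (5). The p53 targets called were 2 to 6 and 2 to 5 at 8 h (6 and 4) and 4 to 7 and 3 to 6 at 24 h (6 and 5). Without periportal 8 h replicate 3 the mean of 3 states gave 3. Over all genes tested, the calls between 24 h and 8 h were 617 in pericentral and 413 in periportal hepatocytes with only the groups compared in the fit, in place of 1212 and 931, and those between zones at 8 h 450 in place of 891. DESeq2 gave 821 between zones at 24 h in place of 520, and 6 and 38 zone differences in the change to 8 h and 24 h in place of 0 and 2. The latter count was 0 with the replicate block and with limma-voom.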
